A study of Arabidopsis thaliana with 6 samples.

Results

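Roots of the phl2 mutant of Arabidopsis thaliana were compared with roots of the wild type Col-0, both from seedlings grown on phosphate-deficient medium. The comparison used 4 of the 6 columns of the deposited table, phl2 P- replicates 5 and 6 and Col-0 P- replicates 3 and 4, and covered 11463 of 33602 genes, those that reached 1 RPKM in at least 2 columns. RPKM is the number of reads per kilobase of gene, scaled to the reads of the library. All seedlings were 8 days old, the labels give Col-0 as the ecotype of every sample, and polyadenylated RNA was taken from roots and made into strand-specific libraries with dUTP. Another group, Col-0 P+ (replicates 1 and 2, on medium with phosphate), served as the level without deficiency and entered the fit for its spread. The labels name the mutant only as phl2, with no allele or line, and no phl2 sample with phosphate was analysed here; what phl2 does at any phosphate supply and what it does in deficiency cannot be told apart.

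PHL2 is a MYB-type transcription factor and a close relative of PHR1, the main known activator of the phosphate starvation response. PHR1 binds a short palindromic promoter element, P1BS, in genes of phosphate uptake, phosphate recycling and lipid remodelling, and SPX proteins hold it back when phosphate is ample. Roots short of phosphate raise high-affinity transporters, release phosphate from organic compounds with phosphatases and nucleases, and replace membrane phospholipids by galactolipids and sulfolipids.

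The phl2 columns are not independent. They held equal numbers of reads, within a relative tolerance of 0.001, in 17207 of the 21237 genes above 0 in either, or 81.0%. Replicate 6 had fewer reads in the other 4030 genes and more in 0, while the highest such share in any other pair of columns was 9.62%. Their mean was therefore used as 1 sample, which has no spread of its own. Whether replicates are separate batches of plants is not in the labels, and p-values measure the spread between libraries, which may be technical. Reads behind the table came to 696328 and 665908 in the phl2 columns, against 909956 and 913052 in Col-0 P- and 662581 and 616408 in Col-0 P+. They made up 5.44% and 6.01% of the reads that the phl2 values were divided by. The shares were 9.07% and 8.39% in Col-0 P- and 7.04% and 6.17% in Col-0 P+. At 1 RPKM, a 1 kb gene rested on 12.8 and 11.1 reads in the phl2 columns and on 10.03 and 10.9 reads in Col-0 P-. Genes of the root were present in all columns, among them the hair gene EXPA7, the endodermal gene MYB36 and the xylem gene XCP1, and the flower gene AG and the pollen gene VGD1 were listed at 0.

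Most genes had lower values in phl2 P- than in Col-0 P-. As deposited, the median difference in log2(RPKM + 1) was -0.48 (quartiles -0.65 and -0.26), and 91.2% of genes lay lower in phl2. On those values limma called 2230 genes lower (19.5%) and 33 higher (0.288%), and 83.4% of genes lay below both Col-0 P- libraries. The median-of-ratios factors were 0.775 for the phl2 mean, 0.994 and 0.831 for Col-0 P+ and 1.36 and 1.22 for Col-0 P-. Col-0 P- thus stood above both other groups, and the shift is not that of phl2 alone. After median-of-ratios rescaling of each library, the median was -0.01 (quartiles -0.19 and 0.22). All log2 differences below are phl2 P- minus Col-0 P- on the rescaled log2(RPKM + 1) scale, which understates changes of low genes, with standard errors from limma. A gene is called where its Benjamini-Hochberg adjusted p is under 0.05. RPKM values are as deposited. A gene counts as below (or above) wild type where both phl2 columns, after rescaling, lay below (or above) both Col-0 P- libraries.

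**Figure D1:**
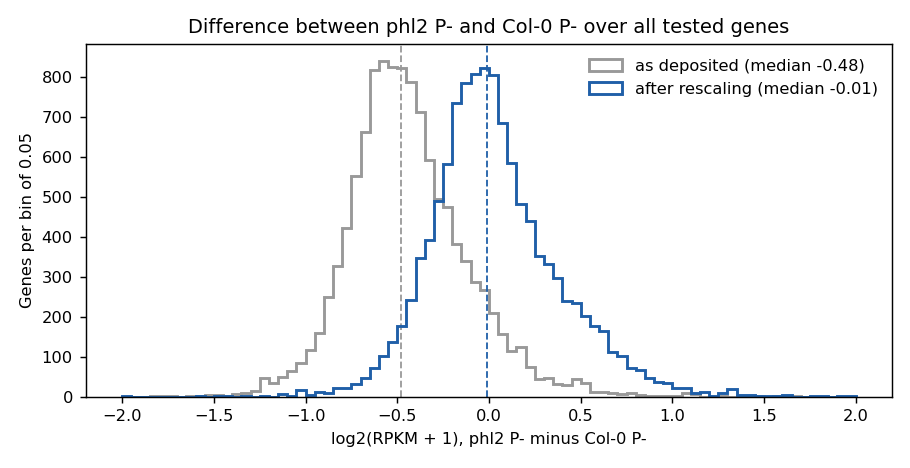
Histograms of the difference in log2(RPKM + 1) between phl2 P- and Col-0 P- over the 11463 tested genes, as deposited (grey) and after rescaling (blue), with dashed lines at the medians; values beyond 2 on either side are not drawn. The deposited values centre on -0.48 and the rescaled ones on -0.01, with a longer tail to the right.

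With the shift removed, limma called 2 genes lower in phl2, 0.0174% of those tested, and 8 higher, 0.0698%. Of the 8, 6 were loci listed at 0 in all 4 wild-type libraries. Only the phl2 columns, counted as 1 sample, brought them past the filter, and they had no spread in wild type, so these 6 calls support nothing. AT2G07793 and ATMG00420 among them have identical values. At an unadjusted p under 0.05, 816 genes were lower (7.12%) and 1353 higher (11.8%). Below both wild-type libraries lay 4597 genes (40.1%), and above both lay 4335 (37.8%). With so wide a background, the position of 1 gene outside the wild-type libraries says little, and lists are read against these shares. The calls also rested on single libraries: 0 genes were called without Col-0 P- replicate 3, with 927 at an unadjusted p under 0.05, and 0 without replicate 4, with 1344. They reached 78 lower and 266 higher without Col-0 P+ replicate 1, and 174 and 548 without replicate 2.

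HEI10 and MRD1, which overlap on opposite strands of chromosome 1, were the called lower pair. HEI10, a factor of meiotic crossing over (chr1:19963267-19966952), was listed at 0.173 and 0.200 RPKM in phl2 P-, at 13.1 and 12.1 in Col-0 P- and at 13.8 and 14.5 in Col-0 P+. The phl2 value was thus 1.49% of wild type (-3.12 ± 0.17, adjusted p = 0.0043, limma). MRD1 was listed at 0 in both phl2 columns, at 8.37 and 9.77 in Col-0 P- and at 4.84 and 5.84 in Col-0 P+ (adjusted p = 0.015, limma). The libraries were strand-specific, but it is not known here from which strand the listed values were counted. Where these genes overlap, reads from HEI10 could therefore be listed under MRD1, or the reverse. Exonic bases opposite to another gene make up 41.3% of HEI10 and 89.8% of MRD1. Of the 8 called higher, 2 had values in wild type, ARFD1A and the plastid locus ATCG00390. ATCG00390 had 4.28 and 3.71 RPKM in phl2 P-, against 1.37 and 1.26 in Col-0 P- and 4.36 and 4.11 in Col-0 P+. Its phl2 columns thus overlapped Col-0 P+ as deposited. No exonic length was available for ATCG00390. Its Col-0 P- mean of 1.31 RPKM equalled the median of the tested tRNA loci, whose median exonic length was 72 bp. At such a length 1.31 RPKM is very few reads, so this call may rest on very few reads too. ARFD1A, a small GTPase of the ADP-ribosylation factor class, had 5.18 and 3.47 RPKM in phl2 P-, against 1.57 and 1.76 in Col-0 P- and 1.67 and 1.397 in Col-0 P+ (1.52 ± 0.15, adjusted p = 0.048, limma).

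PHL2 itself (AT3G24120, chr3:8705608-8708336) had 1.04 and 0.934 RPKM in phl2 P-, against 2.14 and 2.24 in Col-0 P- and 1.65 and 2.37 in Col-0 P+. As deposited the phl2 columns lay below all 4 wild-type libraries, and after rescaling the difference of -0.25 ± 0.24 was not called (adjusted p = 0.62, limma). PHR1, its relative, differed by -0.15 ± 0.17 and PHL1 by -0.21 ± 0.16, neither called (adjusted p = 0.69 and 0.53, limma).

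Phosphate transport genes lay lower in phl2 than the median gene. Of 24 listed, 14 passed the filter on low values, and their median was -0.25, against -0.01 over all tested genes. Of the 14, 9 were below both wild-type libraries and 1 was above, and 0 were called after rescaling. The root uptake transporters led. PHT1;2 (chr5:17415698-17417972) had 8.61 and 9.95 RPKM in phl2 P-, against 30.7 and 24.7 in Col-0 P- and 4.38 and 3.02 in Col-0 P+. As deposited, the phl2 columns lay between the wild-type groups and overlapped neither, at 33.5% of Col-0 P-. That share still holds the library-wide shift. The rescaled difference was -0.79 ± 0.16 and was not called. PHT1;1 had 9.20 and 10.6 RPKM in phl2 P-, against 29.6 and 25.1 in Col-0 P- and 6.08 and 4.32 in Col-0 P+ (-0.68 ± 0.15). These genes are close in sequence and lie near each other on chromosome 5, so reads may be shared between them. PHT1;4 had 3.95 and 4.56 RPKM in phl2 P-, against 11.96 and 9.23 in Col-0 P- and 0.894 and 0.790 in Col-0 P+ (-0.50 ± 0.15). PHO1, which loads phosphate into the xylem, had 2.59 and 2.996 RPKM in phl2 P-, against 6.98 and 5.49 in Col-0 P- (-0.33 ± 0.14). PHT1;9, an uptake transporter of the same family, was not low after rescaling. PHT1;9 had 4.15 and 4.66 RPKM in phl2 P-, against 6.72 and 6.29 in Col-0 P- and 0.447 and 0.474 in Col-0 P+ (0.15 ± 0.14, and -0.028 relative to the median gene at 5 RPKM or more).

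Phosphatases and nucleases showed the same direction. Of 19 listed, 15 were tested, with a median of -0.15, which was -0.069 relative to all genes without Col-0 P- replicate 3; 12 were below both wild-type libraries, 1 was above and 0 were called. PAP8, a purple acid phosphatase, had 2.41 and 2.78 RPKM in phl2 P-, against 6.78 and 5.95 in Col-0 P- and 3.11 and 3.16 in Col-0 P+ (-0.45 ± 0.15, adjusted p = 0.21, limma). As deposited the phl2 columns lay below all 4 wild-type libraries, and after rescaling only below Col-0 P-. PAP22 had 1.19 and 1.38 RPKM in phl2 P-, against 4.69 and 4.89 in Col-0 P- and 0.454 and 0.245 in Col-0 P+ (-0.83 ± 0.17). PAP26, the main vacuolar and secreted acid phosphatase, had 2.42 and 2.76 RPKM in phl2 P-, against 5.94 and 5.02 in Col-0 P- (-0.27 ± 0.13). PECP1 and PS2, listed at or near 0 with phosphate, stood close to the median of the list, unlike PAP22. PECP1, a phosphoethanolamine and phosphocholine phosphatase, had 7.05 and 8.15 RPKM in phl2 P-, 15.9 and 12.7 in Col-0 P- and was listed at 0 in both Col-0 P+ libraries (-0.15 ± 0.14). Its relative PS2 had 8.93 and 10.3 RPKM in phl2 P-, against 19.5 and 15.8 in Col-0 P- and 0.181 and 0.171 in Col-0 P+ (-0.12 ± 0.14). ENDO2, a nuclease gene with 82.2% of its exonic bases opposite to another gene, was the 1 above (0.33 ± 0.18).

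Genes of membrane lipid remodelling lay lower too. Of 25 listed, 19 were tested, with a median of -0.21; 15 were below both wild-type libraries, 2 were above and 0 were called. MGDC (also known as MGD3), a galactolipid synthase, had 3.53 and 4.08 RPKM in phl2 P-, against 8.89 and 7.86 in Col-0 P- and 0.260 and 0.122 in Col-0 P+ (-0.34 ± 0.15, adjusted p = 0.28, limma). NPC4, a phospholipase C, had 3.41 and 3.897 RPKM in phl2 P-, against 7.28 and 8.66 in Col-0 P- and 0.283 and 0.213 in Col-0 P+ (-0.33 ± 0.18). In both genes the phl2 columns were far above Col-0 P+ and below Col-0 P-. SQD1, of sulfolipid synthesis, had 2.29 and 2.65 RPKM in phl2 P-, against 5.91 and 4.64 in Col-0 P- and 0.808 and 0.272 in Col-0 P+ (-0.27 ± 0.22). The galactolipid synthases DGD2 and MGD2 had the lowest differences of the list (-0.56 ± 0.17 and -0.49 ± 0.15), at deposited means of 0.668 and 0.937 RPKM in phl2 P- and 2.26 and 2.72 in Col-0 P-. SRG3, a glycerophosphodiesterase, had 9.48 and 10.8 RPKM in phl2 P-, against 17.5 and 16.3 in Col-0 P-. Its rescaled difference was under 0.01, but relative to the median gene it was -0.20 as deposited and -0.36 under quantile normalization.

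Sensing and signalling genes were closest to the shift among the phosphate lists. Of 26 listed, 20 were tested, with a median of -0.07; 10 were below both wild-type libraries, 4 were above and 0 were called. SPX1, a sensor that restrains PHR1, had 8.20 and 9.48 RPKM in phl2 P-, against 16.8 and 13.3 in Col-0 P- and 0.489 and 0.461 in Col-0 P+ (-0.02 ± 0.15, with the sign turned in 3 alternatives). SPX3 had 5.71 and 6.60 RPKM in phl2 P-, against 13.1 and 10.1 in Col-0 P- (-0.15 ± 0.22). The transcription factor gene WRKY45 had 11.7 and 12.8 RPKM in phl2 P-, against 14.8 and 17.59 in Col-0 P- and 2.09 and 2.299 in Col-0 P+ (0.32 ± 0.21, adjusted p = 0.46, limma). After rescaling that is higher in phl2 and as deposited it is lower; relative to the median gene it was -0.06 under quantile normalization. HRS1, a MYB-type repressor that ties nitrate to phosphate signalling, differed by 0.22 ± 0.16, and AT1G68670 and AT1G25550, of its family, by -0.51 ± 0.14 and -0.20 ± 0.14. PEP carboxylases and their kinases, which feed organic acid synthesis, were all below wild type in the 5 of 6 members tested, with a median of -0.08. Among the 4 with no opposite-strand exon, rescaled on such genes, 1 was below and the median was -0.017. PPCK1 had 4.43 and 5.12 RPKM in phl2 P-, against 10.95 and 8.49 in Col-0 P- (-0.24 ± 0.15).

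**Figure D2:**
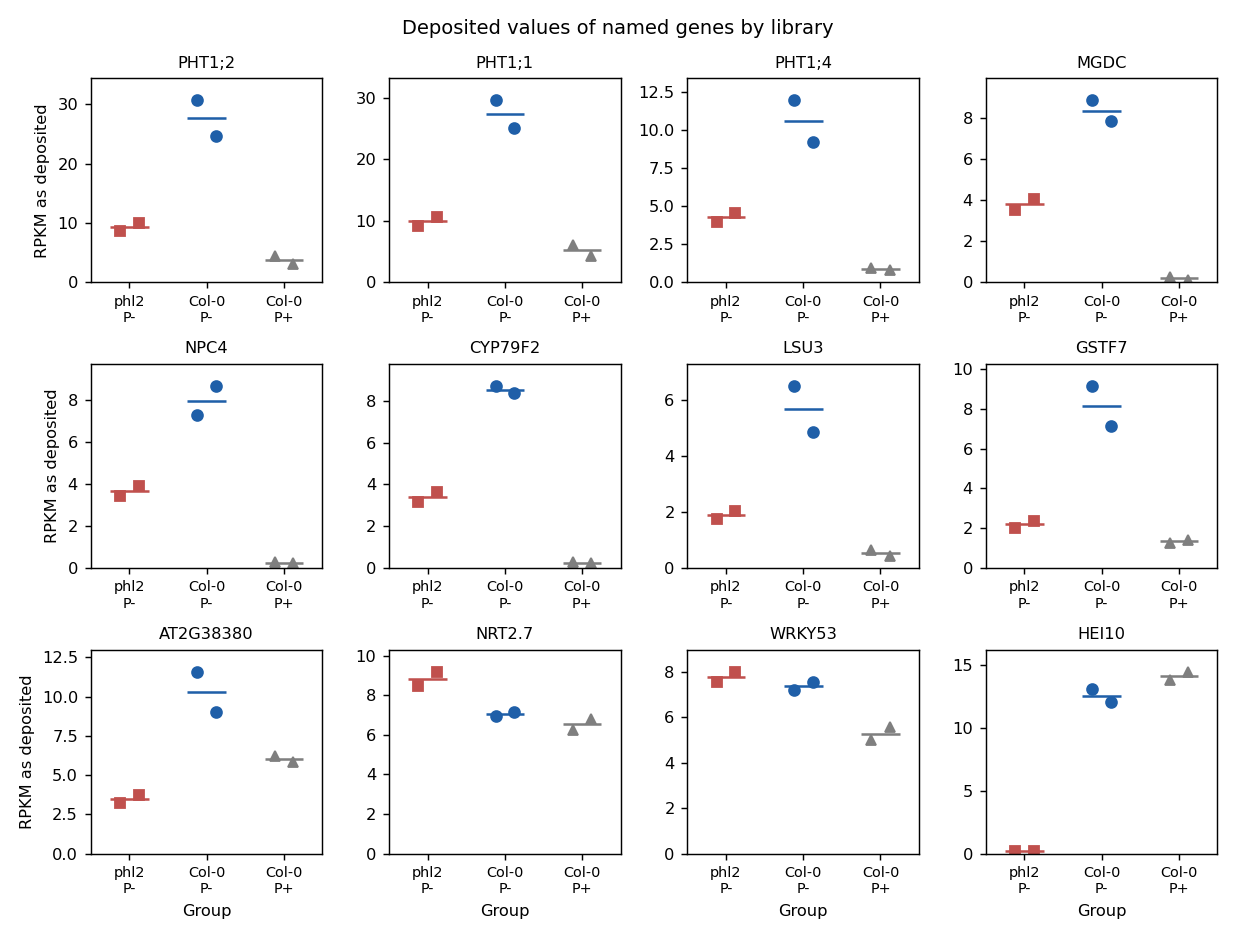
Deposited RPKM of 12 genes in phl2 P- (red squares), Col-0 P- (blue circles) and Col-0 P+ (grey triangles); each point is a column of the table and each line the group mean, and the phl2 points share most of their reads. For PHT1;2 the phl2 columns at 8.61 and 9.95 RPKM lie between Col-0 P- at 30.7 and 24.7 and Col-0 P+ at 4.38 and 3.02, whereas for NRT2.7 they lie highest.

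The P1BS element was searched in promoters as the letters GNATATNC, where N is any base; the motif reads alike on both strands, so each match was counted once. In the window of 250 bases before to 50 after the annotated gene start, 6.25% of 27443 protein-coding promoters held it (RefSeq, TAIR10.1). Of the tested members it was found for 10 of 19 lipid remodelling genes, 7 of 20 sensing and signalling genes, 4 of 15 phosphatases and nucleases, 3 of 14 transport genes and 3 of 5 PEP carboxylase and kinase genes. Over all tested protein-coding genes with a window, the median difference was -0.02 for 10160 genes with 0 matches, -0.04 for 710 with 1 and -0.11 for 44 with 2 or more. Of the 44, 24 were below both wild-type libraries and 13 above, against 4181 and 3722 of the 10160. Within the 4 lists of sensing, transport, phosphatase and lipid genes, the 24 members with a match had a median of -0.12 and the 44 without one -0.15. Below both wild-type libraries were 70.8% of members with a match and 65.9% of those without. With the 1000 bases before the start as the window, chosen after the data were seen, the medians were -0.16 for 32 members with a match and -0.13 for 36 without. The order of the medians thus turned with the window. The 250 bases before the start of 5 genes are shown to let the position of the element be seen in a transporter (PHT1;2), 3 lipid genes (MGD2, NPC4, SRG3) and a sensor (SPX3), 5′ to 3′ on the strand of the gene, with each match in capitals. They lie at chr5:17415448-17415697 (plus strand), chr5:6896213-6896462 (plus), chr3:845097-845346 (minus), chr2:18606160-18606409 (plus) and chr3:350011-350260 (minus) of TAIR10.1.
PHT1;2: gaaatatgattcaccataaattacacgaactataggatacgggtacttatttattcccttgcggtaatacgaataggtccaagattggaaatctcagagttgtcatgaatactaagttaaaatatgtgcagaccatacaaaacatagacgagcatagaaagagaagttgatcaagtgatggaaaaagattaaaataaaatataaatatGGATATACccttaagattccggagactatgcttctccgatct
MGD2: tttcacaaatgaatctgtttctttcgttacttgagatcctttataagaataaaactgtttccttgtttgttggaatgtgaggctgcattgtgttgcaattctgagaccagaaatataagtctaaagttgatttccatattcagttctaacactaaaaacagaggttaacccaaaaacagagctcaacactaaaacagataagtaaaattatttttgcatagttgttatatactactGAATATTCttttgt
NPC4: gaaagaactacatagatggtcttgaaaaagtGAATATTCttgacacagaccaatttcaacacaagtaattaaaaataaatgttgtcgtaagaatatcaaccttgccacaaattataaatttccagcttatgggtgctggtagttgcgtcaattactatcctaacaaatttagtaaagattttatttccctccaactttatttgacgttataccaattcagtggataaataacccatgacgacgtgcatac
SPX3: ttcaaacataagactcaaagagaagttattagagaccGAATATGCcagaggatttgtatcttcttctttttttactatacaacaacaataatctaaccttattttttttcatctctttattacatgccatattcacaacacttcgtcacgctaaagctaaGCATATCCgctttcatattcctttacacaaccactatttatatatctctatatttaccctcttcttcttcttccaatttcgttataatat
SRG3: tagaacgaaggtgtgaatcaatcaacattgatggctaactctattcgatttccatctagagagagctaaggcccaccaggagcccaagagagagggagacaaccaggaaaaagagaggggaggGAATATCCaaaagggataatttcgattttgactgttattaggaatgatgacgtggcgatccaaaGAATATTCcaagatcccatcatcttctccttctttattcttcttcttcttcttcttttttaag
PHT1;2, MGD2 and NPC4 each hold 1 match, beginning 42, 14 and 219 bases before the start. SPX3 and SRG3 hold 2 each, beginning 213 and 90 bases before the start in SPX3 and 127 and 63 in SRG3.

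The aliphatic glucosinolate list had the lowest median of the lists with at least 5 tested members. This rank was not kept among members with no opposite-strand exon, where phosphate transport was lower (-0.25 against -0.23). Aliphatic glucosinolate genes make sulphur-rich defence compounds from methionine, and all but 2 of the 27 listed were tested. Their median was -0.30, with 18 of 25 below both wild-type libraries and 4 above; 0 were called. CYP79F2, which makes aldoximes from chain-elongated methionine, had 3.16 and 3.65 RPKM in phl2 P-, against 8.71 and 8.36 in Col-0 P- and 0.283 and 0.213 in Col-0 P+ (-0.50 ± 0.14, adjusted p = 0.17, limma). SUR1, the C-S lyase of the core pathway, had 1.97 and 2.27 RPKM in phl2 P-, against 5.41 and 5.83 in Col-0 P- and 2.004 and 1.37 in Col-0 P+ (-0.52 ± 0.17). As deposited the phl2 columns overlapped Col-0 P+, and after rescaling they overlapped neither wild-type group. MYB28, the main activator of the pathway, had 1.601 and 1.75 RPKM in phl2 P-, against 4.53 and 4.43 in Col-0 P- and 0.235 and 0.166 in Col-0 P+ (-0.50 ± 0.15). BAT5, a transporter of the pathway's precursors into plastids, had 0.285 and 0.330 RPKM in phl2 P-, against 2.122 and 2.07 in Col-0 P- (-0.91 ± 0.18). MAM1, of methionine chain elongation, stood on the other side (0.19 ± 0.14, and -0.069 relative to the median gene under quantile normalization; 6.60 and 7.57 RPKM in phl2 P-, against 10.9 and 9.46 in Col-0 P-). The indole glucosinolate list had a median of 0.06 over 22 genes, with 9 below and 10 above. Its sign turned in 4 of 15 alternatives (to -0.12 as deposited and -0.19 under quantile normalization, relative to all genes), and the difference between the lists was not tested.

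Sulphur genes had a median of -0.21 over 18 of 25 listed, with 13 below and 3 above, and their members went opposite ways. LSU3, a marker of sulphur shortage, had 1.75 and 2.02 RPKM in phl2 P-, against 6.48 and 4.85 in Col-0 P- and 0.648 and 0.407 in Col-0 P+ (-0.64 ± 0.17, adjusted p = 0.17, limma). SDI1, another such marker, had 0.488 and 0.564 RPKM in phl2 P-, against 2.94 and 2.297 in Col-0 P- (-0.84 ± 0.16). LSU1, next to LSU3 on chromosome 3, had 4.24 and 4.90 RPKM in phl2 P-, against 5.80 and 5.34 in Col-0 P- and 0.412 and 0.388 in Col-0 P+ (0.38 ± 0.14). The root sulphate transporter SULTR1;2 had 10.9 and 12.2 RPKM in phl2 P-, 11.5 and 12.2 in Col-0 P- and 11.8 and 11.5 in Col-0 P+, so it was level as deposited and 0.64 ± 0.17 after rescaling. Among the 11 members with no opposite-strand exon, rescaled on such genes, the median was -0.04.

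Nitrogen, iron and zinc genes also had medians under that of all genes. Nitrate and ammonium genes had a median of -0.16 (29 tested of 40; 19 below and 5 above), iron storage and distribution genes -0.16 (17 of 30; 12 below and 2 above) and zinc genes -0.16 (9 of 19; 5 below and 1 above). Among members with no opposite-strand exon, rescaled on such genes, the medians were -0.06 (23 nitrate and ammonium genes), -0.13 (13 iron genes) and -0.08 (6 zinc genes). Relative to all genes, the iron median kept its sign in 14 of 15 alternatives. NIA2, a nitrate reductase, had 5.97 and 6.87 RPKM in phl2 P-, against 13.2 and 12.4 in Col-0 P- and 2.54 and 2.24 in Col-0 P+ (-0.24 ± 0.13). NRT2.7, a nitrate transporter, had 8.48 and 9.19 RPKM in phl2 P-, against 6.97 and 7.14 in Col-0 P- and 6.26 and 6.78 in Col-0 P+ (0.94 ± 0.18, adjusted p = 0.14, limma). It was among the few genes above wild type as deposited, where 4.14% of genes were above both libraries. The 17 reference genes, chosen as steadily expressed, had a median of -0.12 with 10 below and 6 above. UBQ11, a polyubiquitin gene, had 10.3 and 11.8 RPKM in phl2 P-, against 28.95 and 21.97 in Col-0 P- and 11.1 and 9.40 in Col-0 P+ (-0.43 ± 0.16). A median of -0.12 therefore also occurs in a list not chosen for a tie to phosphate. UBQ11 itself was higher in Col-0 P- than in Col-0 P+.

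**Figure D3:**
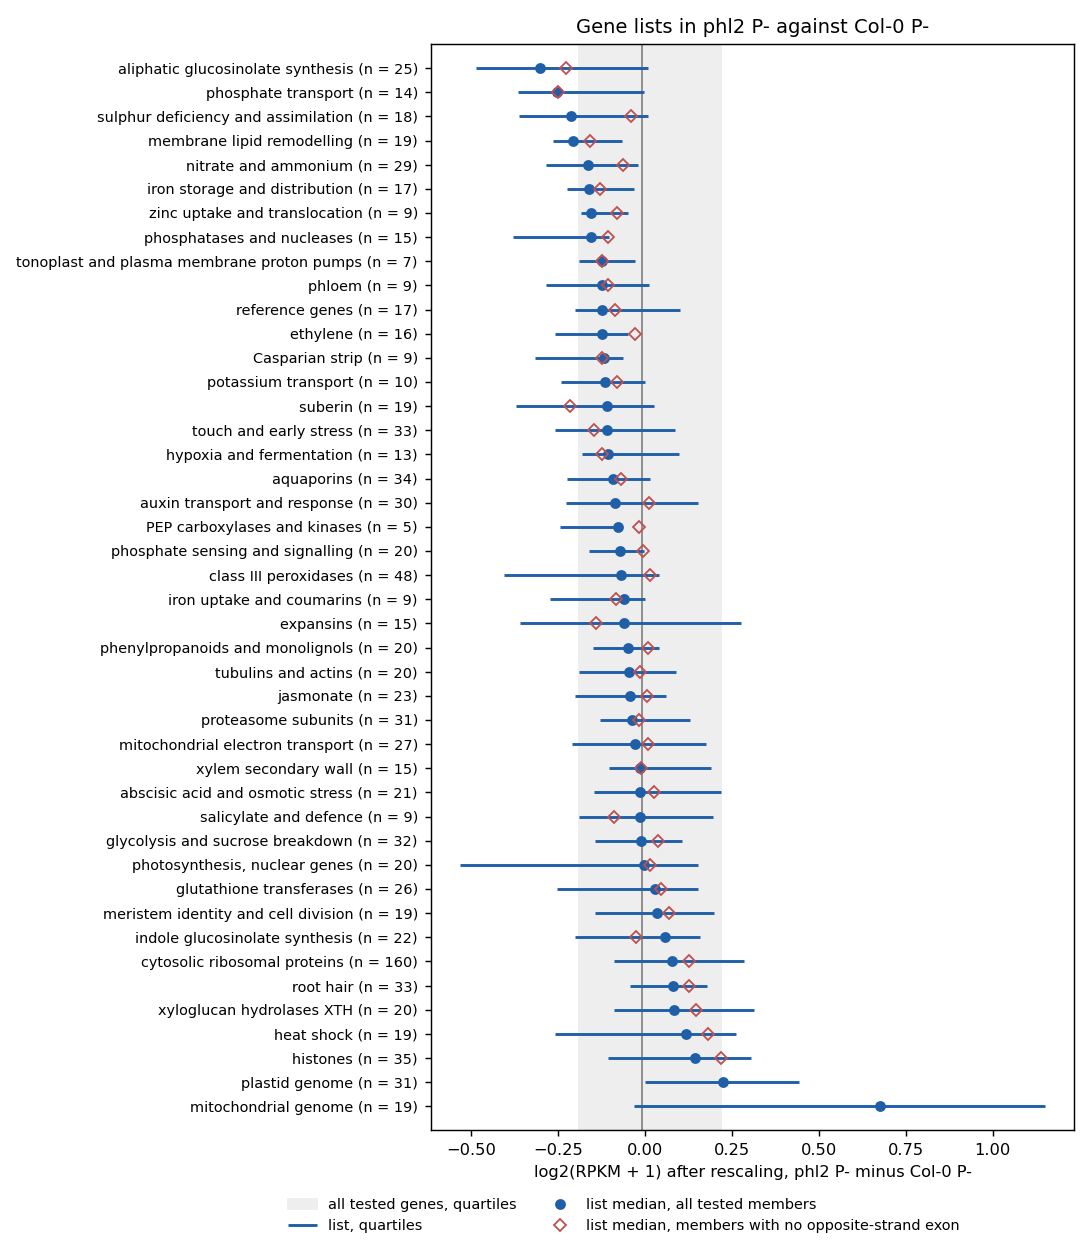
Median (blue circle) and quartiles (blue line) of the rescaled log2 difference, phl2 P- minus Col-0 P-, for each list with at least 5 tested genes, with the number tested. The grey band and line are the quartiles and median of all tested genes. Red diamonds are medians over members with no exon opposite to another gene, from a separate fit rescaled on such genes. Over the 7738 such genes the median is -0.04 on the scale of the circles and 0.00 on that of the diamonds. Aliphatic glucosinolate genes (-0.30) and phosphate transport genes (-0.25) have the lowest medians and mitochondrial genome loci (0.67) the highest, and most list medians stay inside the band. The mitochondrial list includes ATMG00420 and ATMG01160, which are listed at 0 in all wild-type libraries. Relative to all genes, its median ran from -0.07 to 1.06 over the settings tried.

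Genes of the cell wall and of stress held single large differences. Class III peroxidases had a median of -0.07 over 48 genes, with 25 (52.1%) below and 12 above, against 40.1% and 37.8% over all tested genes. Their lower quartile was -0.41, against -0.19 over all tested genes. Among the 40 with no opposite-strand exon, rescaled on such genes, 15 were below and 15 above, with a median of 0.015. AT2G38380, a peroxidase, had 3.23 and 3.74 RPKM in phl2 P-, against 11.6 and 8.999 in Col-0 P- and 6.24 and 5.81 in Col-0 P+ (-0.70 ± 0.15, adjusted p = 0.14, limma). Glutathione transferases had a median of 0.03 over 26 genes. GSTF7 nevertheless had 2.03 and 2.34 RPKM in phl2 P-, against 9.16 and 7.15 in Col-0 P- and 1.26 and 1.41 in Col-0 P+ (-0.93 ± 0.17, adjusted p = 0.14, limma), and its neighbour GSTF6 differed by -0.76 ± 0.23. Their sequences are similar, and reads may be shared. GASA1, a gibberellin-regulated peptide gene, had 1.61 and 1.86 RPKM in phl2 P-, against 6.70 and 5.29 in Col-0 P- and 7.28 and 6.999 in Col-0 P+ (-0.80 ± 0.15). NIT1, a nitrilase, had 2.31 and 2.67 RPKM in phl2 P-, against 8.25 and 6.81 in Col-0 P- and 4.28 and 3.601 in Col-0 P+ (-0.70 ± 0.14). In AT2G38380, GASA1 and NIT1 the phl2 columns lay below all 4 wild-type libraries as deposited. HCT, of lignin precursor synthesis, differed by -0.49 ± 0.14 in a list of 20 phenylpropanoid genes with a median of -0.05, 12 of them below and 5 above. WRKY53, a senescence and defence regulator, had 7.53 and 7.99 RPKM in phl2 P-, 7.18 and 7.52 in Col-0 P- and 4.98 and 5.55 in Col-0 P+ (0.72 ± 0.19), with 20.5% of its exonic bases opposite to another gene.

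Root hair genes, many of which respond to phosphate supply, had a median of 0.08 over 33 of 44 listed, with 9 below and 17 above. Relative to all genes it was -0.029 as deposited, -0.024 under quantile normalization and -0.084 at 5 RPKM or more, so the sign was not stable. LRX1, a root hair wall protein, had 6.39 and 7.39 RPKM in phl2 P-, against 10.03 and 9.51 in Col-0 P- and 2.65 and 2.66 in Col-0 P+ (0.21 ± 0.15; -0.04 relative to the median gene under quantile normalization). EXPA7, a root hair expansin, had 2.34 and 2.71 RPKM in phl2 P-, against 5.79 and 4.98 in Col-0 P- (-0.28 ± 0.17). The Casparian strip gene CASP1 had 0.640 and 0.739 RPKM in phl2 P-, against 2.45 and 2.26 in Col-0 P- and 1.49 and 1.404 in Col-0 P+ (-0.58 ± 0.15), in a list of 9 with a median of -0.12. The 3 markers of shoot tissue were low in phl2. Their summed RPKM was 1.19 and 1.37 in phl2 P-, against 7.24 and 5.08 in Col-0 P- and 10.98 and 8.53 in Col-0 P+, and RBCS1A, the Rubisco small subunit, was at 0.152 and 0.176 RPKM in phl2 P-, against 2.24 and 1.25 in Col-0 P-. The nuclear photosynthesis list had a median of -0.00 but a lower quartile of -0.53 over 20 genes (9 below and 6 above). The part of shoot tissue in the other results was not tested. In bulk roots, fewer cells of a type and less RNA per cell cannot be told apart.

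On the higher side, ribosomal and histone genes stood above the median gene after rescaling. Of 179 listed cytosolic ribosomal protein genes, 160 were tested, with a median of 0.08; 83 were above both wild-type libraries, 41 below and 0 called. This sign was not stable: relative to all genes the median was -0.02 as deposited, -0.02 under quantile normalization and -0.06 among genes with at least 5 RPKM in 2 columns. AT2G34480, for protein L18ae, had 8.45 and 9.66 RPKM in phl2 P-, against 9.93 and 8.71 in Col-0 P- and 7.36 and 7.42 in Col-0 P+ (0.63 ± 0.16). Histones had a median of 0.15 over 35 of 51 listed (16 above and 11 below), which was -0.08 relative to all genes at 5 RPKM. HTB1, a histone H2B, had 5.14 and 5.95 RPKM in phl2 P-, against 6.70 and 4.79 in Col-0 P- and 2.04 and 3.16 in Col-0 P+ (0.60 ± 0.28), while the histone gene AT5G10980 had 2.41 and 2.66 RPKM in phl2 P-, against 7.54 and 6.30 in Col-0 P- (-0.57 ± 0.15). Both lists hold short genes, with median exonic lengths of 915 and 853 bp against 1755 bp over tested protein-coding genes. Among genes with no opposite-strand exon, the sixth with the shortest exons (up to 1059 bp) had a median of 0.07 and the longest sixth -0.08, and the part of length in these medians was not tested. Of 19 heat shock genes, with a median of 0.12, 11 were above and 6 below, and relative to all genes the median was -0.046 as deposited, -0.083 under quantile normalization and -0.026 at 5 RPKM or more. BIP2 and BIP1, chaperones of the endoplasmic reticulum with near-identical sequences, had 48.0 and 55.2, and 47.0 and 54.2 RPKM in phl2 P-, against 64.5 and 54.8, and 62.9 and 56.5 in Col-0 P- (0.52 ± 0.17 and 0.49 ± 0.17; BIP1 was -0.00 relative to the median gene under quantile normalization).

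Genes were also grouped by the terms of biological process in the RefSeq notes. Of 69 terms with at least 20 tested genes, nucleosome assembly had the highest median (0.22 over 44 genes, 28 above and 8 below). It was followed by photosynthesis (0.12), response to heat (0.11), aging (0.10), fatty acid biosynthetic process (0.10) and protein folding (0.10 over 130 genes, 69 above and 36 below). Among members with no opposite-strand exon, rescaled on such genes, these medians were in turn 0.26, 0.06, 0.09, -0.01, 0.01 and 0.09. The nuclear photosynthesis list, unlike the photosynthesis term, had a median of -0.00. The lowest medians belonged to multicellular organismal development (-0.18 over 34 genes, 23 below and 5 above), lipid transport (-0.17 over 33), response to abscisic acid (-0.14 over 40), cation transport (-0.14 over 21) and transmembrane transport (-0.14 over 108 genes, 65 below and 23 above). Other transport terms were nearer to the median gene, among them metal ion transport (-0.06 over 40 genes, 20 below and 18 above) and protein transport (-0.04 over 72). The terms share genes with the lists and with each other.

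The difference between phl2 and wild type varied with the share of a gene's exonic bases that lie opposite to another gene. Genes with no exon opposite to another gene had a median of -0.04, with 45.1% below both wild-type libraries and 31.7% above. With over 25 to 50% of their exonic bases opposite, the median of 469 genes was 0.28, and with over 75 to 90% it was 0.57 over 125 genes, 86.4% of them above and 6.40% below. At over 90% it was again lower, 0.49 over 297 genes, with 77.4% above. As deposited the medians of these 4 classes were -0.51, -0.24, -0.07 and -0.11. Covered genes also had higher levels, with medians of 5.26 RPKM in Col-0 P- at over 90%, 7.60 at over 75 to 90% and 2.21 with none. Among genes with none, the sixth with the highest Col-0 P- values had a median difference of 0.05, against -0.08 in sixth 4. Opposite-strand share, level and type of locus were not separated. Of 157 tested long non-coding RNA loci, with a median of 74.0% of exonic bases opposite, 147 were above both wild-type libraries and 4 below (median 0.64). Loci of tRNA had a median of 0.82, although only 87 of 141 had values of their own. Their median exonic length was 72 bp and their median Col-0 P- value 1.31 RPKM, so these values rest on very few reads. Loci that reached 1 RPKM only in the phl2 columns also passed the filter, and this median is not read as a rise. Among the 7738 genes with no opposite-strand exon, rescaled on themselves, limma called 0 lower and 2 higher (1237 in either direction at an unadjusted p under 0.05), with 38.4% of genes below both wild-type libraries and 39.2% above. The phosphate medians were then -0.25 for transport (13 genes), -0.16 for lipid remodelling (15), -0.11 for phosphatases and nucleases (11) and -0.00 for sensing and signalling (19), and that of aliphatic glucosinolate genes was -0.23 (19).

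**Figure D4:**
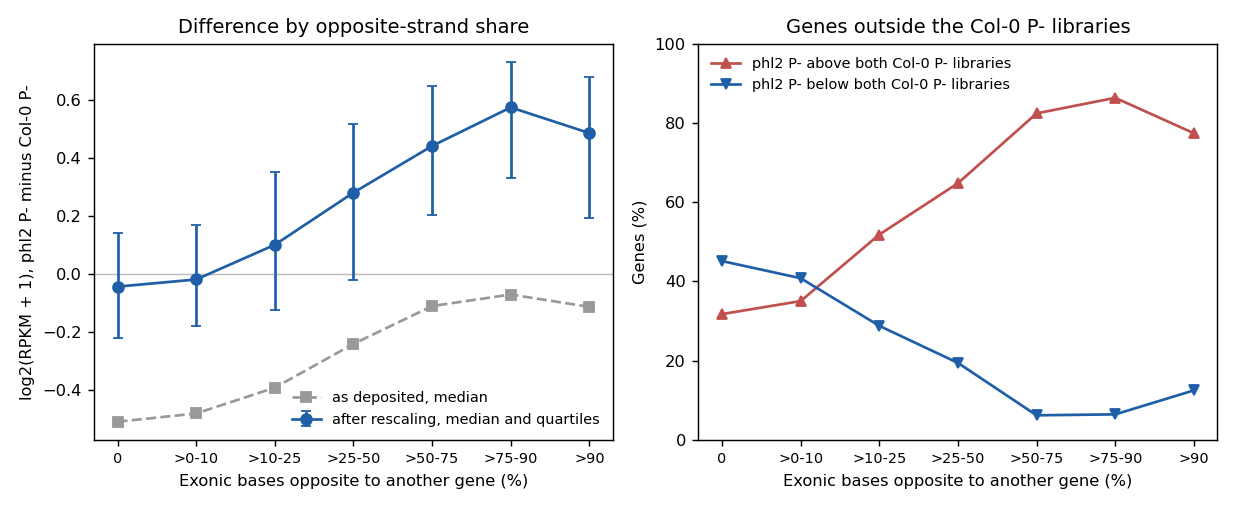
Left, median difference in log2(RPKM + 1), phl2 P- minus Col-0 P-, by the share of exonic bases that lie opposite to another gene, after rescaling (blue, bars are quartiles) and as deposited (grey); right, percent of genes above (red) and below (blue) both Col-0 P- libraries after rescaling. The rescaled median is 0.57 at over 75 to 90%, where 86.4% of genes are above, 0.49 at over 90% and -0.04 with none.

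Pairs of overlapping genes were then compared. Of the tested members of the phosphate, PEP carboxylase, aliphatic glucosinolate, sulphur and nitrogen lists, 12 overlap a tested gene on the other strand by at least 50 exonic bases, and in 8 of the 12 the locus on the other strand had the higher rescaled difference. It had the lower one beside PHR1, ENDO2, FMO GS-OX5 and SERAT3;2. Of the 12 genes, 4 were at least 2-fold higher in Col-0 P- than in Col-0 P+; these pairs were looked up after their values were seen. In all 4, the locus on the other strand was also at least 2-fold higher in Col-0 P-, and it lay above both wild-type libraries in phl2 after rescaling, while the gene itself lay below or between them. PAP17, an acid phosphatase of the starvation response, had 7.25 and 7.87 RPKM in phl2 P-, against 14.0 and 10.95 in Col-0 P- and 2.89 and 2.93 in Col-0 P+ (0.02 ± 0.16). AT3G17800, which overlaps PAP17 by 122 bases, had 5.74 and 5.84 RPKM in phl2 P-, against 6.98 and 6.32 in Col-0 P- and 2.37 and 1.71 in Col-0 P+ (0.46 ± 0.14). AT3G02030, which overlaps SRG3 by 681 bases, had 19.6 and 17.44 RPKM in phl2 P-, against 19.9 and 19.7 in Col-0 P- and 7.36 and 8.07 in Col-0 P+ (0.61 ± 0.19). The glucosinolate gene BCAT4, which deaminates methionine, had 4.06 and 4.69 RPKM in phl2 P-, against 10.6 and 8.88 in Col-0 P- and 0.233 and 0.293 in Col-0 P+ (-0.36 ± 0.15). IKU2, which overlaps BCAT4 by 307 bases, had 5.13 and 4.93 RPKM in phl2 P-, against 5.91 and 5.12 in Col-0 P- and 0.798 and 1.13 in Col-0 P+ (0.51 ± 0.19). For APR2, of sulphate reduction, the phl2 columns held 1.703 and 1.97 RPKM, against 4.90 and 4.21 in Col-0 P-, whereas AT1G62170 on its other strand held 2.76 and 2.56 RPKM in phl2 P-, against 2.596 and 2.98 in Col-0 P-. None of these genes was called. As deposited, the 4 genes had a median difference of -0.82 and the 4 loci on the other strand -0.10. The strand that was counted is not given in the sources used here, so reads of a gene and of its partner cannot be told apart. Nor is it known here whether a listed value comes from the gene's own strand. AT4G13505, opposite to 98.4% of the exonic bases of AMT1;1, had a Col-0 P- mean of 55.7 RPKM, against 7.30 for AMT1;1. Tested long non-coding loci had a median of 11.1 RPKM in Col-0 P-, against 2.27 for protein-coding genes. The source of these levels was not tested.

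**Figure D5:**
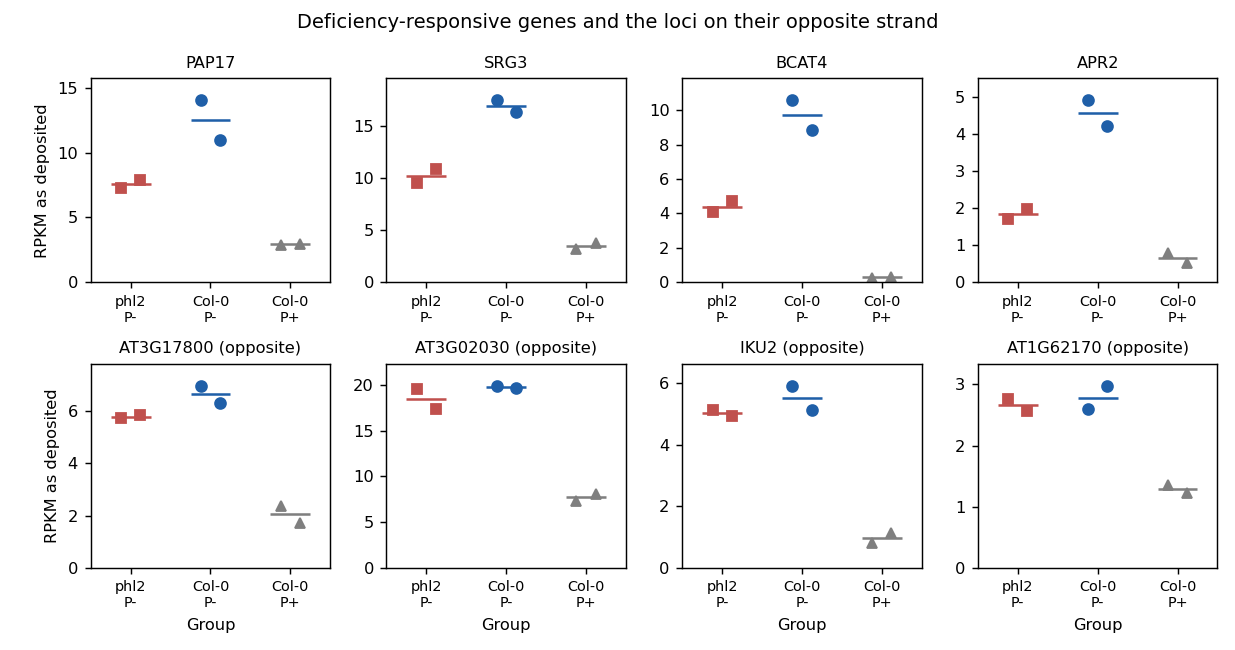
Deposited RPKM of 4 genes higher in deficiency (top row) and of the loci that overlap them on the other strand (bottom row) in phl2 P- (red squares), Col-0 P- (blue circles) and Col-0 P+ (grey triangles), with lines at group means. For BCAT4 the phl2 columns at 4.06 and 4.69 RPKM are below Col-0 P- at 10.6 and 8.88. For IKU2 opposite to it, 5.13 and 4.93 RPKM stand beside 5.91 and 5.12. These values hold the library-wide shift, and after rescaling the differences are -0.36 for BCAT4 and 0.51 for IKU2.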

How the data were processed

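Polyadenylated RNA of roots was sequenced in 6 columns of 3 groups. The deposited values are the authors' RPKM over 33602 genes in a single table. Per the submitters' processing notes, TopHat2 and DESeq2 were used with TAIR10; the counter, the strand counted and the divisor: not given in the sources used here. Values at tRNA loci gave what 1 read is worth per library, hence the read totals; 99.1% to 100% of these loci came out whole within 0.05 read. No count test was run.

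Genes reaching 1 RPKM in at least 2 columns were tested on log2(RPKM + 1), with a pseudocount of 1, after median-of-ratios rescaling (factors 0.775 for the phl2 mean, 1.36 and 1.22 for Col-0 P-, 0.994 and 0.831 for Col-0 P+). limma 3.58.1 in R 4.3.3 was fitted to 5 samples, the 2 libraries of each wild-type group and the phl2 mean, with a variance trend (2 residual and 4.41 prior degrees of freedom), two-sided, with Benjamini-Hochberg adjustment over all tested genes. The spread comes from the wild-type libraries and stands in for that of phl2. The script was tested on simulated data.

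RefSeq's annotation (TAIR10.1) matched 32827 genes and gave names, coordinates (1-based), exonic lengths, opposite-strand shares and promoter sequence. The members and the 47 gene lists were chosen with earlier results of these data known, and some list entries were corrected after the files were read; 109 of 1063 names written could not be matched to 1 gene. No list was tested as a set: counts and medians stand beside those of all tested genes. Named genes are drawn from PHL2, PHR1 and PHL1, called genes, up to 3 members per list with the largest difference at 5 RPKM or more and both phl2 columns outside both Col-0 P- values, and the 10 largest falls and rises with no opposite-strand exon; 9 of those rises are tRNA loci. Other genes named were chosen after their values were seen. Alternatives covered scaling, pseudocount, filter, samples in the fit, each library left out and genes with no opposite-strand exon.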

Additional observations from a re-analysis of the deposited data

How the results depend on the processing

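No paired analysis was possible because each replicate number occurs in 1 group. The counts of called genes depended on nearly every choice. Called lower and higher were 2230 and 33 as deposited, 174 and 596 in a fit of the deficient libraries alone, and 1000 and 1384 with both phl2 columns as replicates, which share their reads. Called lower were 5 under quantile normalization and 15 at 5 RPKM or more, and called higher 0 with a pseudocount of 0.1. With no filter 0 and 0 of 24207 genes were called, with 3235 at an unadjusted p under 0.05, and 0 and 2 among genes with no opposite-strand exon. Leaving out 1 library gave 0 to 174 lower and 0 to 548 higher. Genes below and above both Col-0 P- libraries numbered 9559 and 474 as deposited, 8376 and 8334 with no filter, 952 and 814 at 5 RPKM or more, and 2972 below among genes with no opposite-strand exon.

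List medians are given here minus the median of all tested genes. Those of the 4 phosphate lists and of aliphatic glucosinolate genes were below 0 in all 15 alternatives. This was not particular to them. Other lists also stayed below 0 in all 15, among them aquaporins, ethylene, suberin, expansins and the reference genes (-0.34 to -0.087). Every alternative also drew on the same phl2 columns, which share most reads. Phosphate transport was at -0.22 as deposited, -0.22 under quantile normalization, -0.31 with a pseudocount of 0.1, -0.21 with no filter and -0.50 at 5 RPKM, and at -0.25 to -0.23 with 1 library left out. Phosphatases and nucleases were at -0.32, -0.33 and -0.30 as deposited, under quantile normalization and at 5 RPKM, at -0.11 without opposite-strand exons, and between -0.22 and -0.069 with 1 library left out, the last without Col-0 P- replicate 3. Lipid remodelling was at -0.24 as deposited, -0.21 under quantile normalization, -0.26 with a pseudocount of 0.1, -0.15 with no filter, -0.34 at 5 RPKM and -0.16 without opposite-strand exons, and at -0.20 to -0.17 with 1 library left out. Sensing and signalling was at -0.14 under quantile normalization, -0.15 at 5 RPKM and -0.0060 at its weakest, without opposite-strand exons. Aliphatic glucosinolate genes were at -0.45, -0.45, -0.34, -0.48 and -0.23 as deposited, under quantile normalization, with a pseudocount of 0.1, at 5 RPKM and without opposite-strand exons, and at -0.30 to -0.24 with 1 library left out. Histones were at 0.055 as deposited, 0.0086 under quantile normalization, 0.20 with a pseudocount of 0.1, 0.12 with no filter, -0.084 at 5 RPKM and 0.22 without opposite-strand exons, and at 0.061 to 0.16 with 1 library left out. Ribosomal genes were at -0.021, -0.024, -0.060 and 0.12 as deposited, under quantile normalization, at 5 RPKM and without opposite-strand exons, and at 0.081 to 0.12 with 1 library left out. Genes with a P1BS match were at -0.031, and at -0.018 in a window of 1000 bases, an alternative chosen after seeing the data. The causes of these shifts were not tested.

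Of 65 genes named, relative to the median gene, the sign turned for 8. SRG3 turned to -0.20 as deposited, -0.36 under quantile normalization, -0.016 under upper quartile scaling and -0.20 at 5 RPKM, and ran from -0.015 (without Col-0 P- replicate 3) to 0.038 with 1 library left out. PAP17 turned to -0.17, -0.29 and -0.17 as deposited, under quantile normalization and at 5 RPKM, and ran from -0.064 (without Col-0 P- replicate 4) to 0.12 with 1 library left out, with -0.0013 without phl2 replicate 5. SPX1 turned to 0.0066 with no filter and 0.044 without opposite-strand exons, and ran from -0.095 (without Col-0 P- replicate 4) to 0.075 (without Col-0 P- replicate 3) with 1 library left out. WRKY45, LRX1, BIP1 and MAM1 turned to -0.058, -0.038, -0.0039 and -0.069 under quantile normalization, and PHT1;9 to -0.028 at 5 RPKM. The phl2 arm is 1 sample, so a p that misses the threshold does not show that values did not differ.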
